A study of Mus musculus with 8 samples.

Results

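The genes described here are 8 of the phosphoinositide signalling pathway, namely Inpp4b, Inpp5d, Pik3cd, Pik3r1, Pik3ip1, Pik3ap1, Plcg1 and Plcg2. They were chosen by their methylation levels in B against T cells of these same libraries, so every B against T value below is a description of where the difference lies and how large it is, with no test of the genes. Each gene was taken from its start to its end with 10 kb on either side, in GENCODE release 21 on the mouse build GRCm38 (mm10). Together they are 8 of 21508 protein-coding genes with data, and they held 13176 CpGs of the reference, of which 12020 (91.2%) were measured in every library.

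Methylation was measured by oxidative bisulfite sequencing of the whole genome, in which 5-methylcytosine is read as C while unmodified cytosine, and 5-hydroxymethylcytosine after its oxidation, are read as T. The cells came from spleens of unmodified C57BL/6J mice of 6 to 8 weeks of age. Resting B cells were those lacking CD43, and naive CD4+ T cells were sorted on high CD62L and low CD44 without CD25, so no knockout, transgene or treatment was involved in any group. Each cell type was taken from females and from males, with 2 samples per group and 8 in all, and according to the methods a sample joined the cells of several mice. Both samples of a group share a single deposited table, and whether it holds 1 of them or both could not be worked out. The name of each table carries the number of 1 of its 2 samples, which does not settle it. Each table is therefore called a library, which gave 4 libraries with no spread between replicates. Levels are given for females first and for males second. All intervals are 95% Wilson intervals, which cover counting error alone. In a pool of cells a level between 0 and 100% cannot tell apart a share of cells that are fully methylated and a partial level in each cell.

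Phosphoinositides are membrane lipids whose inositol ring carries phosphates, and lymphocyte antigen receptors act through them. Class I phosphoinositide 3-kinases (PI3K) add a phosphate to PIP2 and make PIP3, which draws Akt and Tec family kinases to the membrane, and phosphatases remove phosphates again. Phospholipase C gamma cuts the same PIP2 into inositol trisphosphate, which releases calcium, and diacylglycerol. Plcg1 is the form that acts below the T cell receptor and Plcg2 the form below the B cell receptor. At active promoters and enhancers CpGs tend to be unmethylated, while the bodies of genes are usually methylated.

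The results that follow are illustrated by 6 short sequences. They are shown so that the CpGs behind the levels can be seen, and each is the reference sequence of GRCm38, 5′ to 3′, in lower case with every CG in capitals. The first is the start of a shorter coding transcript inside Inpp4b (chr8:81772863-81773162, plus strand), with 4 CpGs. The methylated share of its reads was 95% and 88.5% in B cells against 0% in both T cell libraries.
Inpp4b internal start: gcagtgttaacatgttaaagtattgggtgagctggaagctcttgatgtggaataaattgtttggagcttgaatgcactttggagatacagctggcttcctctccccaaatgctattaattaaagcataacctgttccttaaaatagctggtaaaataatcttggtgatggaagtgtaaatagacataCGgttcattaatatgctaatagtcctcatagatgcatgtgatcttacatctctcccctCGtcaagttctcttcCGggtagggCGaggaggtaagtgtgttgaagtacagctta
The next pair lies in introns of the phospholipases and shows opposite directions. This pair, and the windows of Pik3ap1 and Inpp5d below, were cut from runs of CpGs picked for large differences in a single direction. Their directions and large gaps thus follow from that choice. In Plcg1 (chr2:160733646-160733864, plus strand, 6 CpGs) the levels were 53.3% and 55.9% in B cells against 6.45% and 9.21% in T cells. The 1-kb tile that holds this Plcg1 sequence (17 CpGs) was not called by the rule given below. It had 23.3% and 21.2% in B cells against 2.79% and 2.69% in T cells. In Plcg2 (chr8:117525669-117525967, plus strand, 10 CpGs) they were 22.3% and 27.9% in B cells against 84.4% and 85.6% in T cells.
Plcg1 intron: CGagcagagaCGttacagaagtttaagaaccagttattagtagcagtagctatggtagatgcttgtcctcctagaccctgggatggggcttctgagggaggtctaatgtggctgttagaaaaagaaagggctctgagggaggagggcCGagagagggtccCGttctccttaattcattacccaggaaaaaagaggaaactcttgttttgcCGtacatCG
Plcg2 intron: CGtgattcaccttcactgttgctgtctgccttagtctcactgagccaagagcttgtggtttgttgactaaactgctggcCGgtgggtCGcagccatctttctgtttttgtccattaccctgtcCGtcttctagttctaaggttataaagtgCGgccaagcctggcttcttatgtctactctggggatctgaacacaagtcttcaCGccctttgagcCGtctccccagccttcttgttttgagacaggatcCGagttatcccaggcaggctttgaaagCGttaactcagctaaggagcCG
The stretch upstream of Pik3ap1 (chr19:41391031-41391289, plus strand, 9 CpGs) had the largest difference of the 6 in favour of T cells, with 6.95% and 14.3% in B cells against 92.0% and 94.9% in T cells. An intron of Inpp5d (chr1:87657986-87658282, plus strand, 6 CpGs) had 1.65% and 7.32% in B cells against 65.2% and 58.9% in T cells.
Pik3ap1 upstream: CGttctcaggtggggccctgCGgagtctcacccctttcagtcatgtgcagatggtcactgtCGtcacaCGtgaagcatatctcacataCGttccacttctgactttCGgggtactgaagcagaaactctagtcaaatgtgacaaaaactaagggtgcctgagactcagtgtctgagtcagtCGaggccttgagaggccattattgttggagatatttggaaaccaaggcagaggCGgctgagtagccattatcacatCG
Inpp5d intron: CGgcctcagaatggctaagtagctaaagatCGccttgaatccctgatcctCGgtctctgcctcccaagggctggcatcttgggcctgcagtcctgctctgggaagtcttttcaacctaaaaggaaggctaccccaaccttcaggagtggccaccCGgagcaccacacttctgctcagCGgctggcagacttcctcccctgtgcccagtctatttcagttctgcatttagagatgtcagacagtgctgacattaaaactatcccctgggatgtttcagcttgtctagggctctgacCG
The last is a promoter of Pik3cd (chr4:149676040-149676339, minus strand, from the promoter table of RefSeq on GRCm38.p6), shown because its direction is opposite to that of most called tiles of its gene. Only 8 of its 26 CpGs were measured in every library, and their levels were 23.1% and 44.9% in B cells against 77.9% and 77.5% in T cells.
Pik3cd inner promoter: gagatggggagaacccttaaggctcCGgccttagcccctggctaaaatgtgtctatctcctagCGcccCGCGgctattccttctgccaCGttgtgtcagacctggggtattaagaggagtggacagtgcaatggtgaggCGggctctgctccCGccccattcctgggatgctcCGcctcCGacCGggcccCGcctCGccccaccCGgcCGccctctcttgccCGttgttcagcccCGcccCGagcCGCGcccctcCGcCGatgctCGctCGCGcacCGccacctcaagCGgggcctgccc

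Reads at CpGs numbered between 280919817 (male B cells) and 354634149 (female B cells) per library, with a median of 14 to 17 reads per autosomal CpG. The methylated share of mitochondrial reads, a background for incomplete conversion, was higher in B cells (0.271% in females and 0.727% in males) than in T cells (0.0733% and 0.0709%). Its part in the differences was not tested. The cell types were checked at the promoters of marker genes. All 8 T cell markers were more methylated in B cells (65.5% to 94.9% over single B cell libraries against 0.566% to 24.4% in T cell libraries), and all 6 B cell markers were more methylated in T cells (37.9% to 95.2% against 8.36% to 28.7%, again over single libraries). Of 4 myeloid and 4 natural killer cell markers, 0 were called. Their promoters were methylated at 47.2% to 90.6% in B cells and 50.5% to 91.5% in T cells (myeloid), and at 61.3% to 88.4% and 41.7% to 91.4% (natural killer).

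Differences were located in tiles of 1 kb with at least 5 CpGs and 20 reads in every library. A tile was called when the adjusted p of the edgeR quasi-likelihood test, fitted on all tiles of the genome, was under 0.05 and the mean B minus T difference reached 20 points. Of 933 tiles in the 8 genes (medians of 9 CpGs and, in a library, 146 reads), 150 (16.1%) were called, against 3.17% of all 1530528 tiles. More methylated in B cells were 105 (background 2.36%), and more methylated in T cells were 45 (background 0.812%). Since the genes were named with this contrast known, nothing is read from these shares beyond where the tiles lie. Over the tiles of the 8 genes B minus T had a median of 2.34 points, and over all tiles 0.788 points.

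The genes were put into 2 groups by the sign of the B minus T difference over their gene bodies. Called tiles inside the bodies share reads with that difference, so their match with the groups is partly built in. Of the tiles with more methylation in B cells, Inpp4b, Pik3cd, Pik3r1, Pik3ip1 and Plcg1 held 103 and the other genes 2. Of those with more in T cells, Inpp5d, Pik3ap1 and Plcg2 held 38 and the other genes 7. The share of called tiles was 44.4% in Pik3cd, 37.9% in Pik3ip1, 20.7% in Plcg1, 14.9% in Pik3r1 and in Pik3ap1, 13.3% in Inpp4b, 9.09% in Inpp5d and 8.61% in Plcg2. Among 16786 genes with at least 20 tested tiles the median share was 2.33%, and between 83.8% (Plcg2) and 99.6% (Pik3cd) of these genes had a smaller share than the gene named.

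**Figure D1:**
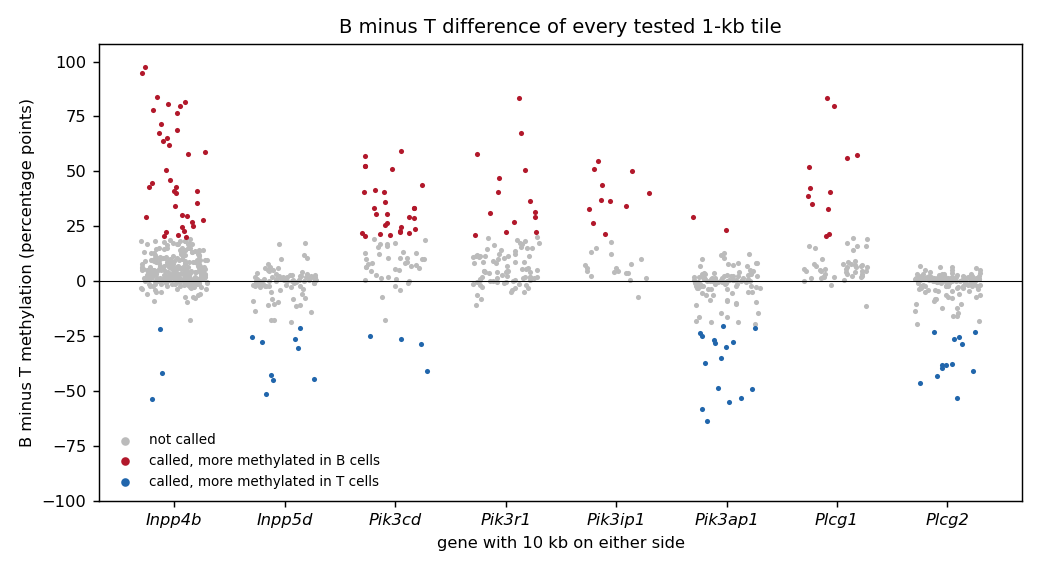
B minus T difference in methylation (percentage points) of each tested tile of 1 kb in the 8 genes with 10 kb on either side, where each point is 1 tile and its sideways position is random. Red points were called as more methylated in B cells (105 tiles) and blue points in T cells (45 tiles), and Plcg1, Pik3r1 and Pik3ip1 have red points alone, Plcg2 and Inpp5d blue points alone.

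Levels on either side of the called tiles were as follows. Where B cells were more methylated, the median over the called tiles was 89.2% on the high side and 41.8% on the low side, with the B cell mean over 80% in 75 of 105 tiles and the T cell mean under 20% in 23 and under 10% in 15. Where T cells were more methylated, the medians were 77.4% and 40.9%, with the T cell mean over 80% in 19 of 45 tiles and the B cell mean under 20% in 8 and under 10% in 2. The low sides were thus close to each other and the high side was higher in the first direction, a difference that was not tested. A change from over 80% to under 20% occurred in 10 tiles, all with the low side in T cells. The difference reached 20 points in each sex separately in 91 of the 105 and in 41 of the 45 tiles. Nearest the threshold, the smallest called difference was 20.29 points (Inpp4b, chromosome 8, 81845001 to 81846000) and the largest that was not called was 19.96 points (Pik3r1, chromosome 13, 101756001 to 101757000).

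By position, introns held 68 called tiles in favour of B cells and 36 in favour of T cells of 620 tested, a share of 16.8% beside 16.1% over all positions. Exons held 18 and 2 of 149 (13.4%). Tiles at an alternative coding start, away from the first one, held 8 and 2 of 32 (31.2%), and tiles at the main promoters 4 and 0 of 23 (17.4%). Pik3cd alone held 4 of these 8 and 1 of these 2 tiles at alternative starts, and 3 of the 4 at promoters. Shares by position were not worked out over the genome. The flanks held 3 and 3 of 52 upstream and 4 and 2 of 57 downstream. Of all called tiles, 8 of the 105 and 2 of the 45 overlapped another coding gene (Clstn1 beside Pik3cd, Limk2 beside Pik3ip1 and Zhx3 in Plcg1) and cannot be assigned to the gene named alone.

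At a finer scale, runs of at least 3 neighbouring CpGs that each differed by at least 30 points in the mean, in the same direction in females and males, numbered 118 in favour of B cells and 45 in favour of T cells. They covered 44972 and 10872 bases and held 622 and 241 CpGs. Such runs were not counted over the genome, and the genes were chosen by this same contrast. Nothing is therefore read from these numbers beyond where the runs lie. Every such run in Pik3r1 (17), Pik3ip1 (13) and Plcg1 (13) favoured B cells and every run in Plcg2 (14) favoured T cells. The other genes had runs in both directions, with 43 and 2 in Inpp4b, 26 and 6 in Pik3cd, 2 and 10 in Inpp5d and 4 and 13 in Pik3ap1.

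Inpp4b encodes a phosphatase that removes a phosphate from PI(3,4)P2, the product of PIP3 breakdown (chromosome 8, 81342556 to 82127914, plus strand, 785359 bases). Its promoter was low in all 4 libraries, with 2.92% and 2.48% in B cells against 1.26% and 1.04% in T cells. Over its 785359 bases with 10 kb on either side, only 309 tiles of 1 kb had enough CpGs and reads to be tested. The share of its CpGs measured in every library was 83.5%, against 93.2% (Pik3r1) to 96.7% (Plcg1) in the other genes. Among the tested tiles the largest difference lay deep in the gene. The tile from 81771001 to 81772000, in an intron, was methylated at 98.6% (92.6% to 99.8% of 73 reads) and 98.0% (89.7% to 99.7% of 51) in B cells against 1.67% (0.295% to 8.86% of 60) and 0% (0% to 4.53% of 81) in T cells. The mean difference was 97.5 points over 5 CpGs, and it placed Inpp4b at rank 2 of all genes by the largest tile. This tile was known when the gene was named, and it is the largest of 309 tested tiles, so nothing is read from the rank.

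This tile was part of a block. In steps of 5000 bases the B minus T difference was 6.07 points from 81756001 to 81761000 and 63.1 points in the next step. It then ran at 58.4, 68.0, 76.4 and 70.3 points up to 81786000, and came down through 47.8 and 28.7 points to 81801000. A second rise of 51.5 points, from 81801001 to 81806000, followed. T cells were below 2% methylated over the 10 kb from 81766001 to 81776000, with 1.53% and 1.51% in females and 1.07% and 1.22% in males in its 2 steps. B cells were not uniform there. They had 62.4% and 71.4% in females and 57% and 67.3% in males, and dipped to 17.8% and 18.1% from 81767001 to 81768000, where the difference was not called, and to 31.6% and 23.9% in the tile after it, where T cells were at 0% in each sex.

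The longest run of CpGs in any of the 8 genes, 19 CpGs from 81769513 to 81771891, lay in this block with 88.7% and 91.2% in B cells against 0.791% and 1.25% in T cells. It was followed by 11 CpGs from 81772702 to 81773634 with 89.7% and 87.3% in B cells against 0% in both T cell libraries. The annotation places a coding start at the second run. GENCODE lists 5 groups of coding starts in Inpp4b, and transcript Inpp4b-208 begins at 81773113, which is 430557 bases from the gene start and 1113 bases after the end of the tile with the largest difference. Within 500 bases of this start, over 10 CpGs, the level was 96.6% (92.3% to 98.5%) and 97.1% (91.8% to 99.0%) in B cells against 0% (up to 3.97%) and 0% (up to 3.21%) in T cells. A pair of non-coding transcripts, Inpp4b-204 at 81767801 and Inpp4b-213 at 81770733, also begins in the block.

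Of the other coding starts, that of the full-length gene was between 0.777% and 2.05% in every library. Those at 81715200 and 81741306 were at 91.7% or more in every library. The start at 81856368 had 75% and 78.6% in B cells against 60.8% and 50.6% in T cells, again with less in T cells. The start at 81773113 was thus the one where the cell types stood at opposite ends of the scale, and its sequence, shown above, has only 4 CpGs in 300 bases.

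**Figure D2:**
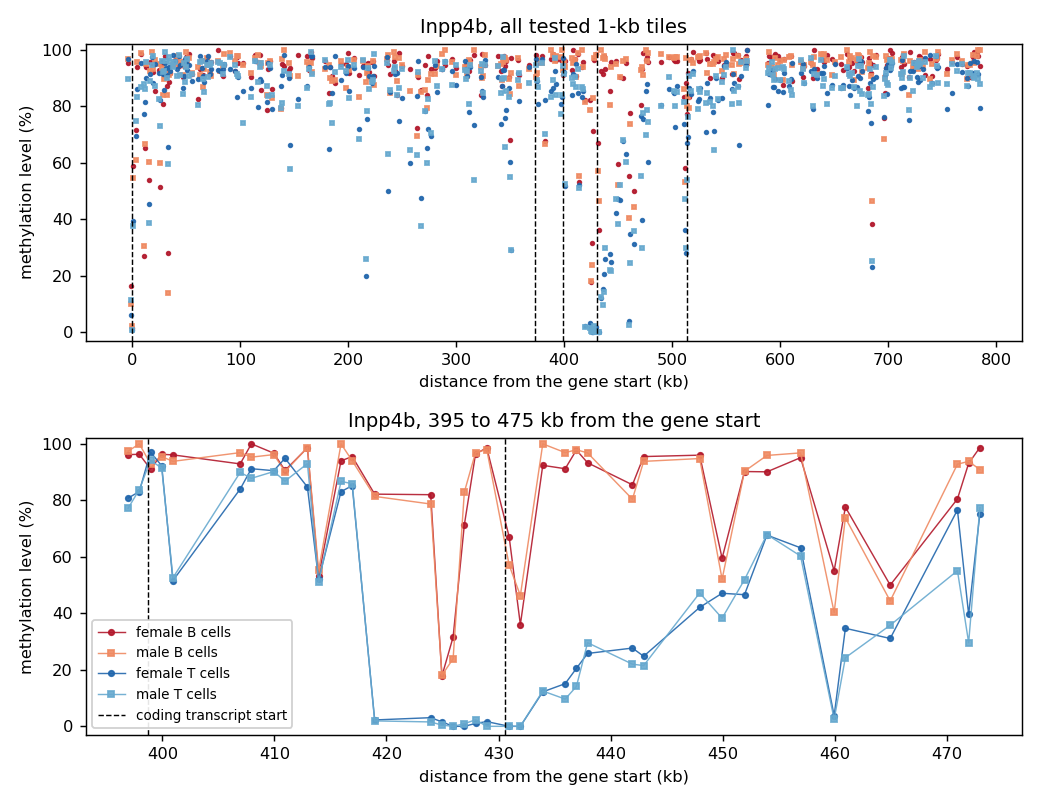
Methylation level (%) of each tested 1-kb tile of Inpp4b against the distance from the gene start (kb), for the whole gene (top) and around its internal coding starts (bottom). Points are levels of the 4 libraries, dashed lines are annotated coding starts, and the T cell libraries drop to near 0% around the start that lies 430557 bases into the gene while most points of the B cell libraries stay far above them.

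Inpp4b also held 3 tiles with more methylation in T cells, all in introns, with centres 10944 to 32944 bases from its start. The tile from 81353001 to 81354000 had 27.0% (20% to 35.3%) and 30.6% (22.8% to 39.7%) in B cells against 77.2% (69.1% to 83.8%) and 87.8% (80.9% to 92.5%) in T cells, a difference of -53.7 points. At its core, 6 CpGs from 81353507 to 81353863 had 14.4% and 18.2% in B cells against 88.8% and 93.5% in T cells. These 3 tiles were a local exception, beside 38 called in favour of B cells in this gene.

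Inpp5d encodes SHIP1, the phosphatase that takes a phosphate off PIP3 in blood cells (chromosome 1, 87620312 to 87720507, plus strand). All 9 of its called tiles were more methylated in T cells. The strongest, from 87638001 to 87639000 in an intron, had 25.1% (19.5% to 31.8%) and 22.0% (16.3% to 29.1%) in B cells against 74.2% (68.5% to 79.2%) and 76.0% (70.0% to 81.2%) in T cells, or -51.5 points. The first tile beyond the promoter, from 87622001 to 87623000, had 26.3% and 23.0% in B cells against 66.4% and 72.3% in T cells. All 9 lay between 87622001 and 87659000, in the first part of the gene. In the opposite direction the largest difference was 17.3 points (87660001 to 87661000), which was not called, although without male T cells it reached 24.4 points and was.

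The sequence shown for Inpp5d holds a sharp example. Its last CpG, at 87658281, was methylated in 0 of 24 and 0 of 21 reads in B cells, against 14 of 14 and 20 of 21 in T cells. The CpG at 87658163 was lower in T cells, with 10 of 24 and 10 of 30 reads, and in B cells it had 0 of 20 and 0 of 23. The promoter of Inpp5d had a mean of 23.0% to 27.4% in the 4 libraries, which joins a high and a low part. The tile from 87619001 to 87620000 was at 85.4% to 89.4%. The next tile was at 5.02% to 6.90% and the one after it at 0.376% to 3.70%. The 500 bases on either side of its first coding starts were at 7.40% to 9.42%.

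Pik3cd encodes the catalytic PI3K subunit p110 delta of leukocytes (chromosome 4, 149649168 to 149702571, minus strand). It was the only one of the 8 whose promoter, within 1 kb of the start, was called (background 1.37%). The promoter levels were 28.9% (26.0% to 32.0%) and 32.8% (29.0% to 36.9%) in B cells against 2.55% (1.71% to 3.80%) and 5.20% (3.86% to 6.98%) in T cells. The difference was 27.0 points. The promoter was not called when female T cells or male B cells were left out. Those fits called far fewer promoters over all genes, but so did the fit without male T cells, which kept this promoter. The cause of the loss was not tested. Centred 505 bases into the gene, 11 CpGs (149701982 to 149702150) had 64.6% and 71.6% in B cells against 1.12% and 4.23% in T cells. In the other 7 genes the promoter difference lay between -3.36 points (Pik3ap1) and 5.74 points (Pik3ip1).

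Of the called tiles of Pik3cd with its flanks, 28 had more methylation in B cells and 4 more in T cells, and 4 of the 32 lay in Clstn1. The largest difference, 59.3 points at 149699001 to 149700000, had 72.8% (64.8% to 79.6%) and 70.5% (62.7% to 77.3%) in B cells against 12.5% (8.24% to 18.5%) and 12.3% (7.72% to 19.1%) in T cells. It lies beside the second group of coding starts, at 149698708, where every library was at 0.643% or less. The low level at that start was thus shared by both cell types, and the difference lay next to it.

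The third group of coding starts in Pik3cd begins at 149676044. Over the whole group, 71 CpGs had 78.6% and 83.2% in B cells against 85.2% and 84.5% in T cells, a difference of -3.98 points. Larger differences in this direction were local, and the tile from 149676001 to 149677000 had 47.1% and 64.8% in B cells against 82.9% and 82.0% in T cells. At its core 10 CpGs from 149675969 to 149676269 had 22.0% and 37.0% in B cells against 75.8% and 83.3% in T cells. B minus T differed by -18.6 points between females and males in this tile, the largest such gap of Pik3cd, with an edgeR adjusted p of 1.00. The tile next to it, from 149677001 to 149678000, was more methylated in B cells by 23.0 points. The other tile inside the gene with more methylation in T cells, over an exon from 149656001 to 149657000, had 57.6% and 65.3% in B cells against 85.9% and 86.5% in T cells (-24.8 points). The most negative tile, from 149641001 to 149642000 (-41.0 points), lay inside Clstn1, which runs beside Pik3cd.

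Pik3r1 encodes the regulatory subunits that hold and stabilise the catalytic subunit (chromosome 13, 101680563 to 101768217, minus strand). All 14 called tiles were more methylated in B cells. The strongest, from 101701001 to 101702000 over an exon, had 92.3% (87.0% to 95.5%) and 93.5% (89.3% to 96.1%) in B cells against 9.80% (6.03% to 15.5%) and 8.88% (5.45% to 14.1%) in T cells, a difference of 83.5 points. Nearby, 18 CpGs from 101707316 to 101708108 in an intron had 76.7% and 78.9% in B cells against 2.22% and 2.46% in T cells. The run of 13 CpGs in that tile and this one lie 7206 and 13112 bases from the start of a shorter transcript at 101694600, which was itself between 0.156% and 1.86% in every library. The main start was at 0.491% or less in every library. The most negative tile, 101692001 to 101693000, had -10.8 points and was not called.

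Pik3ip1 encodes a transmembrane protein that inhibits PI3K (chromosome 11, 3330401 to 3342971, plus strand). It is the shortest gene, and 11 of its 29 tiles were called, all with more methylation in B cells. Levels in the tile with the largest difference, 3334001 to 3335000, were 74.5% (67.9% to 80.1%) and 76.7% (70.7% to 81.9%) in B cells against 21.6% (16.0% to 28.6%) and 20.7% (15.9% to 26.4%) in T cells. Its gene body was the least methylated of the 8, at 38.9% and 47.6% in B cells against 21.1% and 18.2% in T cells. That body includes a second group of coding starts, where 78 of its 202 CpGs were at 0.996% to 3.48% in every library. Of its 11 called tiles, 2 lay in Limk2.

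Pik3ap1 encodes BCAP, an adaptor that brings PI3K to receptors in B cells (chromosome 19, 41272377 to 41385102, minus strand). It held 16 tiles with more methylation in T cells and 2 with more in B cells. The tile from 41382001 to 41383000, in an intron near the start, had 5.65% (2.76% to 11.2%) and 10.1% (6.24% to 16.0%) in B cells against 74.5% (68.0% to 80%) and 68.2% (61.3% to 74.4%) in T cells, or -63.5 points. Upstream of the gene, centred 5805 bases before the coding start at 41385096, 16 CpGs from 41390513 to 41391289 had 13.0% and 20.5% in B cells against 94.7% and 95.3% in T cells. Part of that run is shown above. In it, 6 CpGs in a row had no more than 3 methylated reads in either B cell library, while each was methylated at 83.3% or more in both T cell libraries. The promoter between these sites was low in all libraries, at 2.83% to 8.20%.

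The 2 tiles of Pik3ap1 with more methylation in B cells lay towards its far end. From 41278001 to 41279000 the levels were 84.7% and 86.7% in B cells against 49.8% and 63.0% in T cells, a difference of 29.3 points that limma did not call. From 41283001 to 41284000 they were 61.9% and 67.9% in B cells against 37.7% and 45.9% in T cells.

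Plcg1 and Plcg2 encode the pair of phospholipase C gamma enzymes, and their called tiles went in opposite directions, 12 of 58 with more methylation in B cells in Plcg1 and 13 of 151 with more in T cells in Plcg2. Both starts were low in every library. Within 500 bases of the first coding starts the levels were 0.583% to 1.07% in Plcg1 and 1.47% to 2.83% in Plcg2. The called tiles were inside the genes, except 1 in the upstream flank of Plcg2. From 1000 to 10000 bases after the start of Plcg1 (chromosome 2, 160731300 to 160775760, plus strand), the level was 58.3% (56.0% to 60.5%) and 59.7% (57.1% to 62.2%) in B cells against 25.5% (23.6% to 27.6%) and 25.5% (23.4% to 27.7%) in T cells. Over the same distance in Plcg2 (chromosome 8, 117498291 to 117635142, plus strand), the levels were 73.2% (71.3% to 75.1%) and 75.5% (73.4% to 77.5%) in B cells against 82.7% (81.1% to 84.2%) and 84.3% (82.8% to 85.7%) in T cells.

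The profile along the pair differed too. In Plcg1 the B minus T difference was 33.5 points from 1000 to 10000 bases, 24.1 points up to 20000, 14.5 points up to 35000 and 6.28 points beyond. In Plcg2 it was -9.12 and -3.68 points over the first 2 of these intervals, -15.9 points from 20000 to 35000 bases, -9.25 points up to 70000 and 1.34 points beyond. Upstream of the promoter the values were 0.889 points in Plcg1 and -5.81 points in Plcg2.

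The largest difference in Plcg1, from 160734001 to 160735000 in the first part of the gene, was 83.4 points, with 96.6% (92.7% to 98.4%) and 95.5% (91.1% to 97.8%) in B cells against 12.3% (8.34% to 17.8%) and 13.1% (8.62% to 19.3%) in T cells. A second site, from 160746001 to 160747000, had 81.2% and 90.1% in B cells against 7.96% and 3.47% in T cells. In Plcg2 the tile from 117528001 to 117529000 had 37.2% (28.1% to 47.3%) and 36.8% (26.9% to 48.1%) in B cells against 87.9% (81.2% to 92.4%) and 92.6% (85.4% to 96.3%) in T cells, or -53.2 points. It was the end of 4 neighbouring called tiles from 117525001, of which that from 117526001 was the lowest in B cells, at 9.54% in females and 11.4% in males against 44.7% and 52.2% in T cells. The largest opposite value was 6.72 points in Plcg2 and -11.4 points in Plcg1, and neither was called. In Plcg1, 4 of the 12 tiles also overlap Zhx3.

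**Figure D3:**
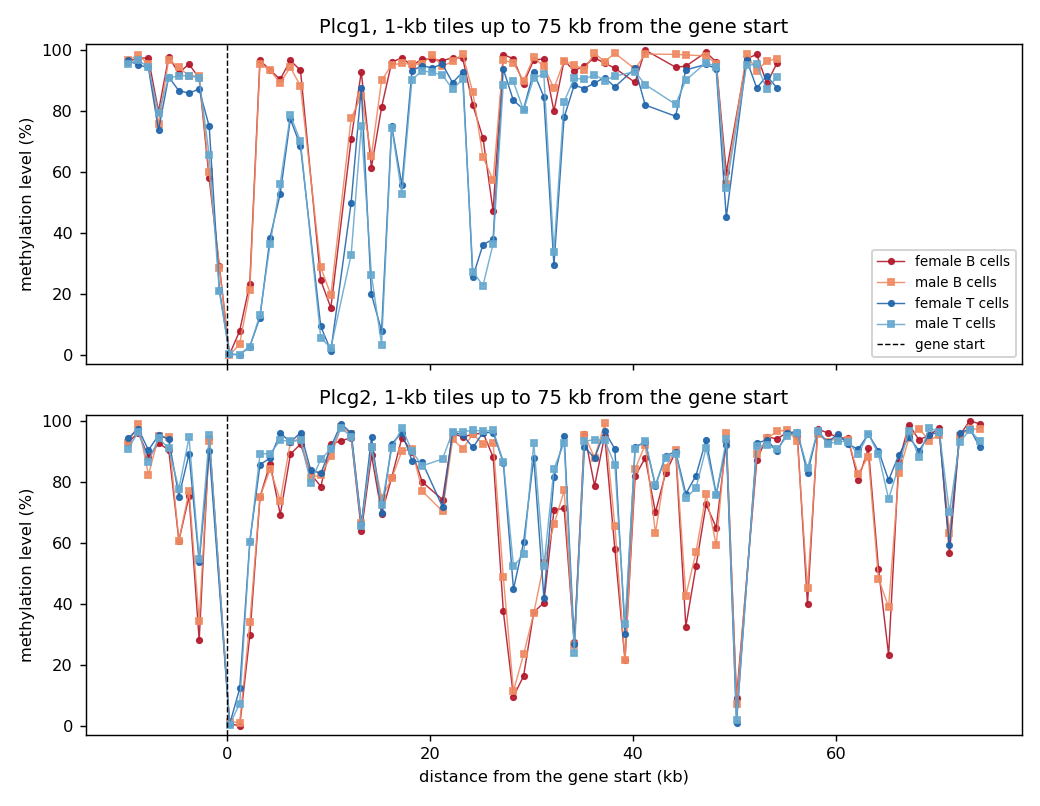
Methylation level (%) of the tested 1-kb tiles of Plcg1 (top) and Plcg2 (bottom) against the distance from the gene start (kb), one line per library. Beyond the start, which is low in every library, the T cell libraries run below the B cell libraries in most tiles of Plcg1. In Plcg2 B minus T is negative over the wide intervals from 1000 to 70000 bases. Single tiles there go the other way, such as that 50210 bases from the start (6.72 points). The plot ends soon after 70000 bases, so most of the further part of Plcg2, where B minus T is 1.34 points, is not drawn.

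Gene bodies were taken without the first 1 kb. The mean difference was 23.6 points in Pik3ip1, 19.3 in Plcg1, 17.7 in Pik3cd, 12.8 in Pik3r1 and 10.2 in Inpp4b. It was -4.54 points in Inpp5d, -3.66 in Plcg2 and -3.43 in Pik3ap1. The rule for gene bodies had no minimum difference and called 42.8% of 20353 genes by edgeR, 38.5% as higher in B cells and 4.37% as higher in T cells. The 8 genes are among them, from which nothing is read since the same contrast chose them. Limma did not call the bodies of Inpp5d, Pik3ap1 and Plcg2. Inpp4b, with its block of large differences in a long gene, had 91.5% and 91.2% in B cells against 81.3% and 81.0% in T cells over 3349 CpGs.

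**Figure D4:**
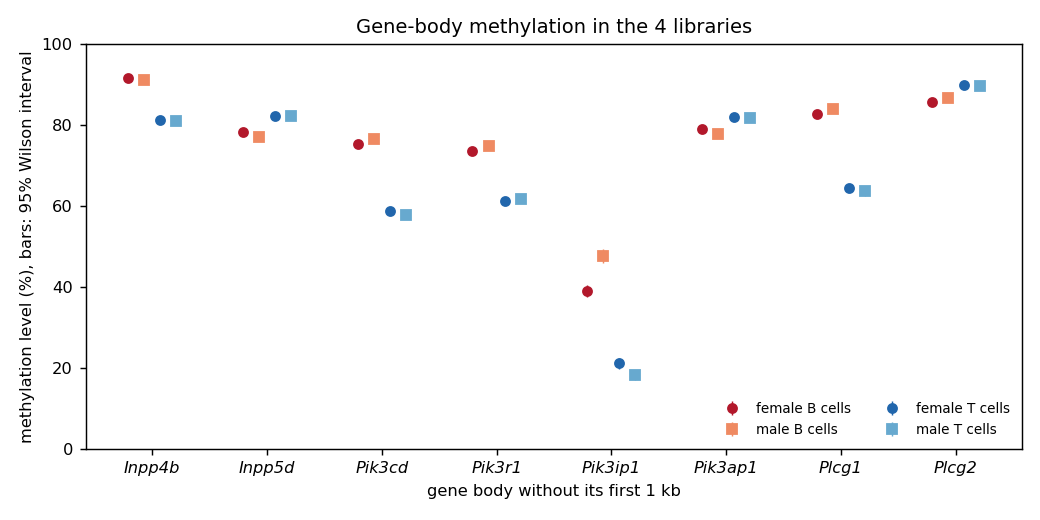
Methylation level (%) of the gene body without its first 1 kb for the 8 genes, with 1 point per library and bars for the 95% Wilson interval, most of them smaller than the point. B cell libraries lie above T cell libraries in Inpp4b, Pik3cd, Pik3r1, Pik3ip1 and Plcg1 and below them in Inpp5d, Pik3ap1 and Plcg2.

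**Figure D5:**
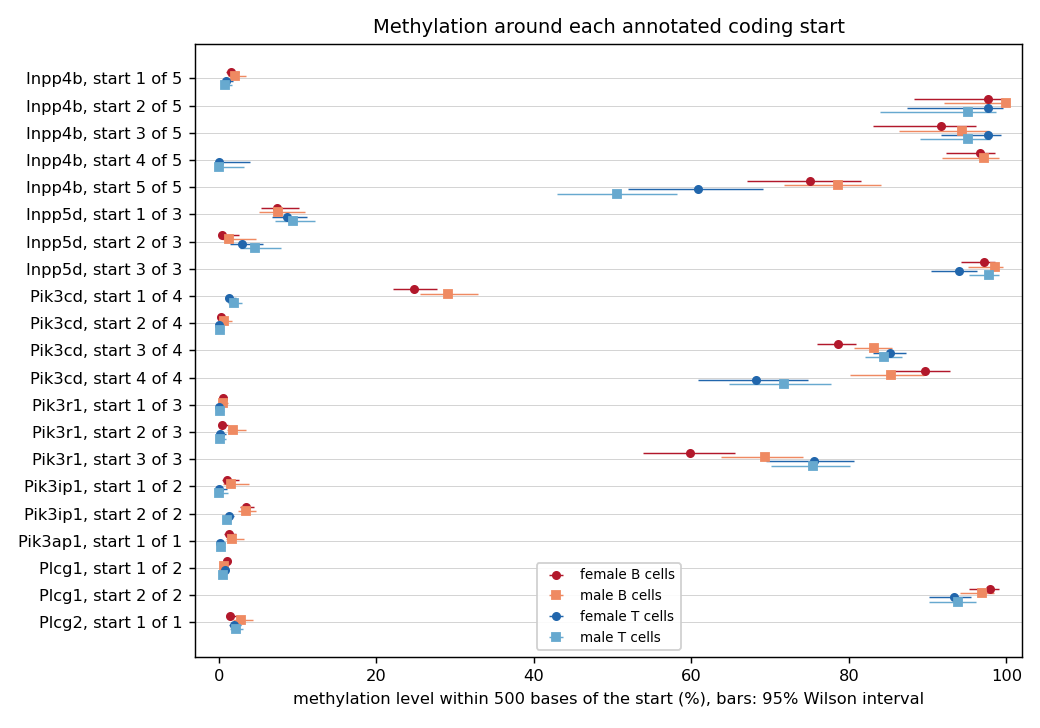
Methylation level (%) within 500 bases of each group of annotated coding starts in the 8 genes, with 1 point per library and bars for the 95% Wilson interval. The fourth start of Inpp4b has both B cell libraries above 96% and both T cell libraries at 0%, and the first start of Pik3cd has B cells at 24.8% and 29.1% against 1.28% and 1.90% in T cells.

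Sex was not used to name the genes, so it could be tested. Of the 933 tiles, 0 were called between females and males by edgeR (background 0.0868% of all tiles, the X chromosome included), and the smallest adjusted p was 0.359. At an unadjusted p under 0.05 there were 51 tiles (5.47%, against 5.15% of all tiles). Limma called 0 as well, but it called only 0.00464% of all tiles, so its 0 adds little. The largest difference between the sexes was -17.0 points (female minus male) in Pik3r1 from 101711001 to 101712000, with an edgeR adjusted p of 0.818. There, B cells had 70.8% and 91.9% and T cells 17.2% and 30.2%. No promoter of the 8 was called between the sexes (0 of 8 by edgeR, background 1.99%, adjusted p of 0.453 or more), and no gene body passed (0 of 8, background 1.04%, adjusted p of 0.806 or more).

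The dependence of B minus T on sex was tested in the same way. Of the 933 tiles, 0 were called (background 0.000784%), with a smallest edgeR adjusted p of 0.609, 53 tiles at an unadjusted p under 0.05 (5.68%, against 4.36% of all tiles) and 0 by limma, which called 0 of all tiles. The largest gap was in Inpp4b from 81813001 to 81814000, where B minus T was 33.7 points smaller in females than in males. Over gene bodies the largest gap was that of Pik3ip1, with B minus T of 17.8 points in females and 29.5 points in males, and an edgeR adjusted p of 1.000. In that body, the second group of coding starts held 1609 of 3973 and 1048 of 3084 reads in B cells. In T cells it held 1374 of 3505 and 1706 of 3763. The part of this in the gap was not tested. With 1 library per group and 1 residual degree of freedom, the values for sex do not show that the sexes are alike.

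Beyond the 8 genes, a list of 83 other genes of the pathway was examined. The list was chosen with earlier results of these data known, so its shares are a description with no test of the pathway. At least 1 tile with more methylation in B cells was called in 56 (67.5%, against 40.1% of all protein-coding genes), and at least 1 with more in T cells in 47 (56.6%, against 23.0%). A gene with more tested tiles is more likely to have at least 1 called, and tile number was not matched between the list and all genes. Tiles of both kinds were present in 36 genes and none in 16. Of the list's 8113 tiles, 560 were called in favour of B cells and 136 in favour of T cells, together 8.58% against 3.17% of all tiles. By role, tiles of the 2 kinds numbered 36 and 21 of 766 tested in 11 PI3K subunits (7.44% called) and 42 and 24 of 1329 in 20 phosphatases (4.97%). They numbered 75 and 9 of 882 in 11 lipid kinases (9.52%), where Pip4k2a alone, picked after its values were seen, held 58 of the 75, and 380 and 62 of 3236 in 29 effectors (13.7%). In 12 phospholipases C they numbered 27 and 20 of 1900, and the share of 2.47% was below that of all tiles.

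Some differences on the list came close to those of Inpp4b. Pik3r5, a regulatory PI3K subunit, had a tile (chromosome 11, 68434001 to 68435000) with 97.2% and 91.1% in B cells against 1.20% and 0% in T cells, a difference of 93.6 points. Other genes in this direction were Itpkb, a kinase of inositol trisphosphate (93.4), and the diacylglycerol kinase genes Dgkh (87.2) and Dgka (86.0). The tile of Pik3r4 (84.8 points) lay in Col6a6. In the opposite direction, Plcl1, a phospholipase C-like gene, had 1.03% and 0% in B cells against 90.7% and 88.6% in T cells (-89.2 points). Pik3c2b, a class II PI3K, had -84.2 points, Plekha2 -79.1, Pi4ka -68.7 and Plcb4 -63.9. Tec, a kinase that PIP3 draws to the membrane, had large differences both ways, with a most negative tile of -81.6 points, a most positive one of 83.7 points, and 12 called tiles in favour of B cells and 7 in favour of T cells.

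Tiles with B minus T of at least 80 points marked the pattern of Inpp4b, which had 5 of them. Such a tile was present in 1.49% of all protein-coding genes in this direction and in 0.219% in the other. By their number Inpp4b ranked 14, and Pik3r1 and Plcg1 had 1 each. Nothing is read from this rank, since the same contrast named the genes. The genes with the most were Satb1 and Lef1 (21 each), Tcf7 (12), and Cd247 and Ets1 (11 each), with 95, 131, 44, 99 and 124 tested tiles. Tiles called in this direction numbered 77, 100, 34, 66 and 63 in these 5 genes, and 38 of 309 in Inpp4b.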

How the data were processed

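Whole genome oxidative bisulfite sequencing was analysed in female and male B and T cells, 8 samples in 4 groups of 2 with 1 table per group, which may hold 1 sample or both. Per the labels, the submitters' processing notes name Trim Galore, FastQC, Bismark 0.13.1 and mm10, without their roles. The authors deposited, for each CpG with at least 5 reads, the methylation level as a fraction rounded up to 3 decimals and the read count as deposited counts of reads. Methylated reads were recovered as the whole number of reads whose share, rounded up, equals the deposited level in all 3 decimals (possible for 100% of values in each library). All columns with values of a sample were used.

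For CpGs present in every library, reads were added up in 1-kb tiles, promoters (1 kb on either side) and gene bodies, with at least 5 CpGs and 20 reads per library. Methylated and unmethylated counts were fitted over all regions of the genome by the quasi-likelihood test of edgeR 4.0.16 in R 4.3.3, with terms for library, cell type and sex, or, in place of sex, a contrast for B minus T differing between sexes. A common dispersion (0.00626 for tiles) came from 20000 tiles, the quasi-dispersions of tiles and promoters were set to their trend (those of gene bodies were drawn to it with 18.4 prior degrees of freedom), and p-values were adjusted by Benjamini-Hochberg over all regions. No tile or promoter has a spread of its own in this fit. The B minus T value is the mean of both sexes. Steps were tested on simulated data. Alternatives were limma 3.58.1 on logit levels (0.5 reads added), no minimum difference, CpGs with at least 10 reads, tiles of 500 bases, other settings for runs of CpGs and leaving out each library.

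Named were the 8 genes, for each the tile with the largest and the most negative difference, of the pathway list the 6 genes at either end (1 is not reported here), and the 5 other genes with the most tiles of 80 points. Other tiles, runs and starts in the text were picked after their values were seen. The genes, lists and rules were chosen with earlier results of these data known.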

Additional observations from a re-analysis of the deposited data

How the results depend on the processing

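Without a minimum difference, 347 tiles of the 8 genes passed between B and T cells (263 with more methylation in B cells, 84 in T cells) in place of 150. Over all tiles of the genome 9.35% passed in place of 3.17%. Leaving out each library in turn gave 151 to 155 called tiles, 156 to 175 runs of CpGs (163 with all libraries) and 0 to 1 called promoters, with Pik3cd lost when either the female T or the male B library was dropped. The fits without female T or male B cells also called far fewer promoters over all genes, as did the fit without male T cells, which kept Pik3cd. With limma 109 tiles and 5 gene bodies were called in place of 150 and 8, the bodies of Inpp5d, Pik3ap1 and Plcg2 no longer among them. Over the genome limma called 2.00% of tiles in place of 3.17%, and 4537 gene bodies in place of 8719. At least 10 reads per CpG gave 105 of 627 tiles (3.45% of all tiles), and tiles of 500 bases gave 169 of 960 (4.00% of all). Asking for 50 points left 87 runs of CpGs. The cause of these changes was not tested, except that stricter minimums leave fewer regions. Of 23 named tiles that were called, 22 were called under every alternative in which they were tested, and the tile of Pik3ap1 at 41278001 was lost with limma. Only 22 of the 28 named tiles, called or not, were tested with at least 10 reads per CpG. None was looked up with tiles of 500 bases. The tile of Inpp5d at 87660001 was called without male T cells (24.4 points). Between the sexes 0 tiles of the 8 genes were called without a minimum difference, with limma, with at least 10 reads per CpG and with tiles of 500 bases. The backgrounds were 0.124%, 0.00464%, 0.0336% and 0.120% of all tiles. Fits without 1 library called 0 of all tiles between the sexes and so say nothing of these genes. No paired analysis was possible because the labels give every sample its own number, so the groups share none. Depth limits single CpGs most, since a level from 14 to 17 reads has a wide interval, and with 1 library per group the spread between mice is unknown.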

Other observations

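Short sequence motifs were counted, on both strands, in windows of 300 bases centred on the 118 runs with more methylation in B cells and the 45 with more in T cells, beside 3014818 windows of that length with at least 3 CpGs. The ETS motif GGAAGT was present in 24.6% and 31.1% of the windows and in 16.9% of all windows. The RUNX motif TGTGGT was present in 23.7% and 35.6% (20.5% of all), the TCF and LEF motif CTTTGA in 23.7% and 15.6% (20.3%), the E-box CAGCTG in 22.0% and 20% (13.5%), and the EBF motif CCCNNGGG in 5.93% and 20% (6.85%). The octamer TGCAAAT had 5.08% and 4.44% (5.18%), and the NFAT motif GGAAAA 22.9% and 13.3% (26.0%). These are counts of letters in few windows, and no difference between them was tested.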
